A study of Mus musculus with 6 samples.

Results

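The genes described here are the E2F transcription factors and the pocket proteins that restrain them, in T-cell acute lymphoblastic leukaemia (T-ALL) of the mouse sorted by the level of MYC. The 10 members were taken by gene symbol: the activators E2f1, E2f2 and E2f3, the canonical repressors E2f4 and E2f6, the atypical repressors E2f7 and E2f8, and the pocket protein genes Rb1, Rbl1 and Rbl2. They were measured by 21 of 34945 named probe sets and stand among 18193 genes. The leukaemias carried Notch1-deltaE, an activated NOTCH1, and a mycGFP allele whose fluorescence reports MYC protein, on the C57BL/6 strain, at an age of 12 weeks. Both groups were CD25+ spleen cells taken 4 weeks after transplantation into congenic recipients and sorted by mCherry and GFP. By the labels the groups differed in GFP alone: 3 arrays of MycGFP negative cells and 3 of MycGFP positive cells. The series describes 3 independent leukaemias, and no label says which array came from which. Each gene's level is the intensity of its probe set, on a linear scale with no unit, and a difference is the log2 value in positive cells minus that in negative cells.

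E2F factors bind DNA with a DP partner and control the genes of DNA replication. In resting cells the pocket proteins RB, p107 and p130 hold E2Fs and recruit repressors. Cyclin-dependent kinases phosphorylate the pocket proteins when a cell commits to divide, which frees the activators E2F1, E2F2 and E2F3. E2F4 depends on pocket proteins for repression, E2F6 lacks the pocket-binding part and works with polycomb proteins, and E2F7 and E2F8 repress without a DP partner late in S phase. Several E2F and pocket protein genes are known E2F targets themselves. In thymocytes E2F1 and E2F2 are known for roles in proliferation and cell death.

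The promoters of the members differed in whether they held the letters of an E2F site. RefSeq windows of 300 bases, 250 before and 50 after a start of transcription on GRCm38.p6, were at hand for 8 members, 10 windows in all, and E2f4 and Rb1 had no entry. Matches to TTCCCGC or TTCGCGC or TTGCCGC or TTGGCGC on either strand lay in 5 of the 10 windows, for Rbl1, E2f2, E2f3, E2f7 and E2f8, while 9.57% of all 32851 windows held one. No match lay in the windows of E2f1, E2f6 and Rbl2, which says only that these letters are not there. The start site of the E2f1 window lies 466 bases inside the gene's outermost end, and that of the E2f8 window 477 bases inside it. For the second windows of E2f2 and E2f3 the start sites lie 8508 and 1673 bases inside. The letters TTTGAA or TTCGAA of a CHR element, which binds DREAM complexes, were in 4 of the 10 windows, and in 19.2% of all. The MYC E-box CACGTG was in 1, the second E2f3 window, and in 7.15% of all. The stretches below are on the strand of each gene and show the E2F matches alone in capitals; those to the CHR element and the E-box are not marked. The E2f6 stretch, 150 of the 300 bases of its window, is an example without a match from a gene called higher. E2f1 was called higher too, and its window, also without a match, is not printed. Motifs that read GCGGGAA or GCGCCAA are the same letters on the other strand.
Rbl1, minus strand, chr2:157204535-157204594, bases -60 to -1: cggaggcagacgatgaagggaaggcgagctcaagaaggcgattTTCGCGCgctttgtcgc
E2f2, plus strand, chr4:136172294-136172323, bases 21 to 50: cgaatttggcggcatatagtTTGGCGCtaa
E2f3, minus strand, chr13:29986064-29986123, bases -60 to -1: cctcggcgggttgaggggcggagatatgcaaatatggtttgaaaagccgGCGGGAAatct
E2f3, minus strand, chr13:29986034-29986063, bases 1 to 30: gagtttcgcgggaggaccTTGGCGCgtaaa
E2f7, plus strand, chr10:110745209-110745368, bases -230 to -71: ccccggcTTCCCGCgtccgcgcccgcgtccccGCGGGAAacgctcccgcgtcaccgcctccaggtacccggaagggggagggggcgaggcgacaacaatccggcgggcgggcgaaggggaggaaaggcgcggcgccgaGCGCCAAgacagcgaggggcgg
E2f8, minus strand, chr7:48881693-48881722, bases -126 to -97: gtgcagaggcgcggaTTGGCGCgcggggcc
E2f6, plus strand, chr12:16810759-16810908, bases -206 to -57: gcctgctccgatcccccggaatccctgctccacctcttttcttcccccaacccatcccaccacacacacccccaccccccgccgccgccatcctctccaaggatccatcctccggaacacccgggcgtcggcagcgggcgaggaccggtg

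The 6 arrays had median intensities of 30.5 to 32.7, and a probe set near these medians may be background. Myc rose 2.58-fold in MycGFP positive cells (limma, adjusted p = 0.0329 over all genes), a call that was lost without negative array 2 (0.0952) or without positive array 1 (0.0913), 2 (0.108) or 3 (0.0786), and without both arrays numbered 1 (0.108) or both numbered 2 (0.263). Of 12 T lineage markers 11 were measured, and their intensities summed to 86342 to 91583 in negative cells and to 63153 to 70525 in positive cells. Among them the co-receptor gene Cd4 fell 7.26-fold (limma, adjusted p = 0.017), a call lost without negative array 2 (0.0605) or positive array 2 (0.0621) or 3 (0.0606), and without both arrays numbered 1 (0.0624) or 2 (0.201). Cd8b1 had separated groups and a log2 difference of -1.59 (adjusted p = 0.0579, and 0.0454 with the array number as a block). The T cell receptor chain genes Cd3d, Cd3g and Cd3e had log2 differences of -0.13, -0.08 and -0.28. Cd247, another chain gene of the receptor, had -1.16 (limma, adjusted p = 0.0625). Thy1, Il2ra, Notch1, Cd8a and Bcl11b had -0.15, -0.18, -0.17, -0.66 and -0.48. Of these genes Cd3e, Cd247, Thy1 and Bcl11b had separated groups with the positive arrays below, as did Cd4 and Cd8b1. Over all genes 11.2% had such groups. Myeloid transcripts were uneven within both groups: the summed intensity of 8 markers was 10396 on negative array 2 and 2635 on positive array 2, against 164 to 1019 on the other arrays. B cell markers summed to 267 to 753 and 279 to 616, erythroid markers to 45.9 to 69.3 and 40.8 to 53.2, and stromal and endothelial markers to 428 to 958 and 282 to 379 on negative and positive arrays. Of the B cell markers, Blk had a log2 difference of 1.56 with separated groups (limma, adjusted p = 0.159). Cd79b had -1.28 with overlapping groups (adjusted p = 0.445), and Cd79a, Ms4a1 and Pax5 had -0.05, -0.08 and -0.15. Of the 6 stromal and endothelial markers 4 lay below the array median on all arrays. The other 2 were Pecam1, at 669, 528 and 358 on negative and 305, 254 and 220 on positive arrays, and Col1a1, at 244 on negative array 1. NK cell markers summed to 4976 to 5521 and 6026 to 7951, nearly all of it from Gzma, which had a log2 difference of 0.44. Klrd1 went the other way, at -2.50 with separated groups (limma, adjusted p = 0.096). Nkg7 had -0.73 with overlapping groups, and Ncr1 lay below the array median on all arrays. In bulk RNA, fewer cells of a type and less RNA per cell cannot be told apart.

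Of the 10 genes, E2f1 and E2f6 rose in MycGFP positive cells and none fell (limma, two-sided, Benjamini-Hochberg adjusted p under 0.05). Over all 18193 genes 840 were called higher, 4.62%, and 275 lower, 1.51%. With quantile normalisation the counts were 596 and 336, so that 63.9% of the called genes were higher against 75.3% as deposited. Counted by probe set, 5 of 21 were called higher and none lower, where 4.76% of all named probe sets were called higher and 2.16% lower. These were 1 of 3 for E2f1, 1 of 2 for E2f3, both for E2f6 and 1 of 2 for E2f8. A gene was tested by its probe set of highest mean, with p adjusted over the genes, and every further probe set with p adjusted over the 34945. Brighter and dimmer here only name a gene's probe sets by their mean intensity. At an unadjusted p under 0.05, 4 of the 10 genes were higher and 1 was lower, against 14.7% and 7.35% of all genes. The median log2 difference of the 21 probe sets was 0.79 and that of all named probe sets 0.01. The groups were separated, with the positive arrays above, for 4 genes, E2f1, E2f3, E2f6 and Rbl1, and with them below for Rbl2, while 28.1% of all genes had such separated groups, 17% with the positive arrays above and 11.2% below. By probe set, 9 of 21 were separated with the positive arrays above and 2 below, against 16.6% and 12% of all, or 28.6% either way.

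**Figure D1:**
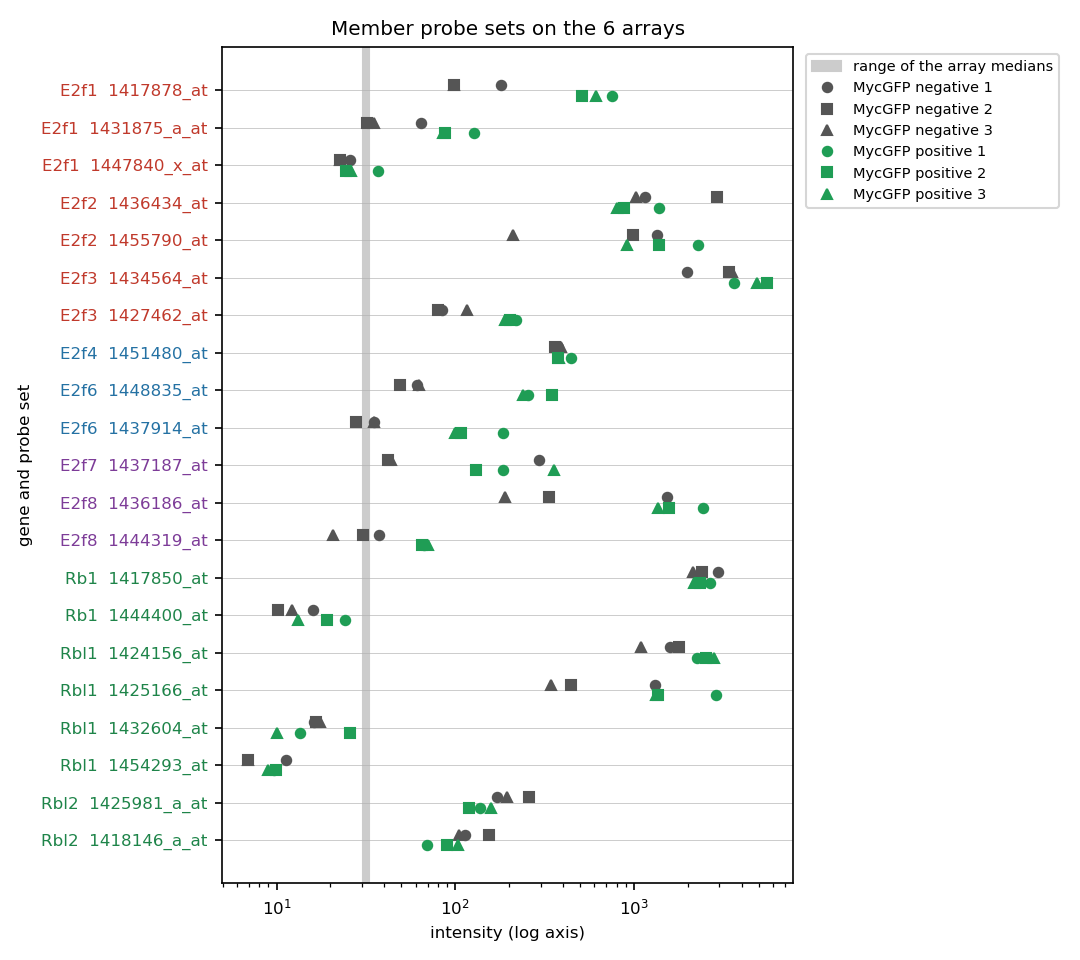
Intensity (log axis) of the 21 probe sets of the E2F and pocket protein genes on the 3 MycGFP negative (grey) and 3 MycGFP positive (green) arrays, with the array number as the symbol and the range of the array medians as a grey band. Both E2f6 probe sets and the brightest E2f1 probe set show separated groups, while the brighter E2f8 probe set and that of E2f7 have negative array 1 among the positive arrays.

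E2f1, the founding activator E2F, rose 5.16-fold. Its brightest probe set read 179, 98.2 and 98.2 on negative arrays 1 to 3 and 755, 512 and 616 on positive arrays 1 to 3. Each positive array was thus above each negative one, negative array 1 was the highest of its group, and the other negative arrays hold the same deposited value. The means were 125 ± 46.9 and 628 ± 122 (SD, n = 3), at a log2 difference of 2.37 ± 0.29 (SE; limma, adjusted p = 0.0162). Between arrays of the same number the ratio was 4.21, 5.22 and 6.28. A second, dimmer E2f1 probe set read 64.6, 32.2 and 35.1 on negative and 127, 87.6 and 85.5 on positive arrays. Its groups were also separated and its log2 difference was 1.23 (limma, adjusted p = 0.0731, and 0.0303 with the array number as a block). The third lay at 22.6 to 37.1 throughout, near or below the array medians, with a log2 difference of 0.28. The E2f1 call was lost without negative array 2 (adjusted p = 0.0574) or without positive array 1 (0.0581), 2 (0.0632) or 3 (0.0616), at log2 differences of 2.22 to 2.51. It was also lost without both arrays numbered 2 (0.201).

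E2f2, an activator that also limits T cell proliferation, gave opposite signs on its probe sets and was called by neither. The brighter one read 1147, 2908 and 1023 on negative arrays and 1380, 875 and 808 on positive arrays, so negative array 2 stood far above the other 5. Its log2 difference was -0.60, with a 95% interval of -1.68 to 0.48 (limma, adjusted p = 0.521). Without both arrays numbered 2, which carried the most myeloid transcripts, it was -0.04 (adjusted p = 0.977), and the part of those transcripts in the E2f2 value was not tested. The dimmer one read 1342, 991 and 209 on negative and 2269, 1373 and 910 on positive arrays. There each positive array exceeded the negative array of its own number, by 1.69, 1.39 and 4.35 times, although the groups overlapped. The log2 scale gave 1.12, with an interval of -0.68 to 2.91 (adjusted p = 0.456). The mean of both probe sets gave 0.26 (adjusted p = 0.843).

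E2f3, an activator expressed from alternative promoters, was called by its dimmer probe set and not by its brighter one. The brighter one read 1981, 3397 and 3538 on negative and 3619, 5582 and 4853 on positive arrays. The groups did not overlap, but negative array 3 and positive array 1 were nearly equal. The difference was 0.68 ± 0.28 on the log2 scale (SE; limma, adjusted p = 0.233). The dimmer one read 84.0, 80.5 and 116 on negative and 219, 202 and 191 on positive arrays, a 2.21-fold rise (log2 difference 1.14, adjusted p = 0.0238). Within array numbers the dimmer probe set was 2.60, 2.51 and 1.65 times higher and the brighter one 1.83, 1.64 and 1.37 times. When both were averaged, E2f3 rose at a log2 difference of 0.91 (adjusted p = 0.0403). The call of the dimmer probe set was lost without negative array 2 (adjusted p = 0.0768), without positive array 1 (0.0733), 2 (0.0873) or 3 (0.0749), and without both arrays numbered 1 (0.113) or both numbered 2 (0.230).

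E2f4, the repressor E2F that most often accompanies p107 and p130, had the narrowest spread of the members among negative arrays. It read 373, 362 and 391 on negative and 444, 377 and 381 on positive arrays, so the groups overlapped. The log2 difference was 0.09, with a 95% interval of -0.22 to 0.40 (limma, adjusted p = 0.762), and it turned to -0.09 with quantile normalisation. The interval leaves room for a rise of up to 0.40 and a fall of up to 0.22 on the log2 scale.

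E2f6, the polycomb-associated repressor, rose 4.84-fold. The brighter probe set read 61.2, 49.1 and 62.4 on negative and 257, 347 and 239 on positive arrays. The negative arrays lay within 1.27 times of each other and far below every positive array. The means were 57.6 ± 7.36 and 281 ± 57.8 (SD, n = 3), at a log2 difference of 2.28 ± 0.19 (SE; limma, adjusted p = 0.0103). The dimmer probe set read 35.2, 27.8 and 35.0 on negative arrays, at the array medians, and 184, 108 and 99.4 on positive arrays. It rose 3.86-fold (adjusted p = 0.0173), a fold that compares a signal with near background. Among the alternatives run, the call of E2f6 as a gene was lost without positive array 2 (adjusted p = 0.0591) and without both arrays numbered 2 (0.201), at log2 differences of 2.11 and 2.00. The call of the dimmer probe set was lost without negative array 2 (0.0633), without positive array 2 (0.0638) or 3 (0.0513), and without both arrays numbered 2 (0.194).

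E2f7 and E2f8, the atypical repressors, were split within the negative group. E2f7 read 293, 42.0 and 43.8 on negative and 185, 130 and 355 on positive arrays. Negative array 1 thus exceeded 2 of the 3 positive arrays, and the other negative arrays lay close to the medians. The log2 difference was 1.33, with an interval of -0.68 to 3.34 (limma, adjusted p = 0.433). Without negative array 1 it was 2.25 (adjusted p = 0.0526 over all genes).

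E2f8, the paralogue of E2f7, had the same split. Its brighter probe set read 1536, 333 and 191 on negative and 2441, 1578 and 1355 on positive arrays. Negative array 1 again lay within the positive range, and the negative arrays spanned 8.05 times. The difference was 1.91 ± 0.76 on the log2 scale (SE; limma, adjusted p = 0.212). Without negative array 1 it was 2.78 and E2f8 was called (adjusted p = 0.0224). The dimmer E2f8 probe set read 37.2, 30.3 and 20.8 on negative and 66.5, 65.2 and 70.7 on positive arrays. It rose 2.36-fold from near background (adjusted p = 0.0333), and this call was lost without negative array 2 (0.0931), without positive array 1 (0.0914), 2 (0.106) or 3 (0.1075), and without both arrays numbered 1 (0.0691) or both numbered 2 (0.252).

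**Figure D2:**
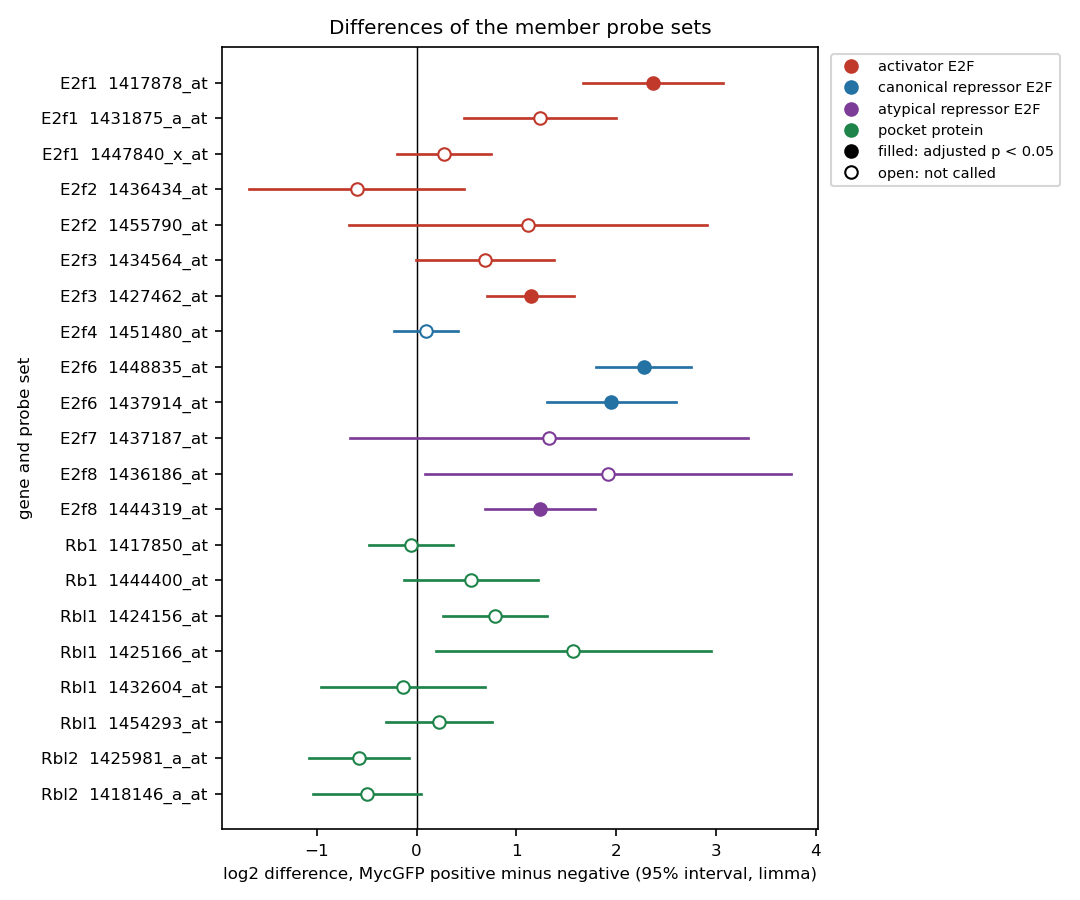
Log2 difference between MycGFP positive and negative cells for each of the 21 probe sets, with 95% intervals from limma and filled points for an adjusted p under 0.05 over all named probe sets. The 5 filled points belong to E2f1, E2f3, E2f6 and E2f8, and the intervals of E2f2 and E2f7 and of the brighter E2f8 probe set are the widest among the E2F factors.

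Set side by side, the activators had the lower mean difference. E2f1 stood apart from the other activators, and E2f6 from E2f4, the other canonical repressor. E2f6, at a log2 difference of 2.28, lay nearer to the atypical E2f8 and E2f7, at 1.91 and 1.33. By the probe set of highest mean, the mean log2 difference was 0.82 over the 3 activators and 1.40 over the 4 repressors, a gap of -0.59. It was 1.18 over the canonical repressors, where E2f6 and E2f4 lay far apart, and 1.62 over the atypical ones. This gap is a description with no test. No label pairs arrays of 1 number: the Y-linked Eif2s3y read 3174, 1038 and 40.2 on negative arrays and 2127, 125 and 185 on positive arrays, so arrays numbered 2 and those numbered 3 differed in it within a number. Its part in the values within numbers was not tested. With E2f2 read from its other probe set, the activators reached 1.39 and the gap was -0.01. Within arrays numbered 1 the gap was 0.49, and within those numbered 2 and 3 it was -1.23 and -1.01. The sign within number 1 went with E2f7 and E2f8, whose mean difference there was 0.00, against 1.94 and 2.92 within numbers 2 and 3. E2f1 differed less between numbers, at log2 differences of 2.07, 2.38 and 2.65, and so did E2f6, at 2.07, 2.82 and 1.94.

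**Figure D3:**
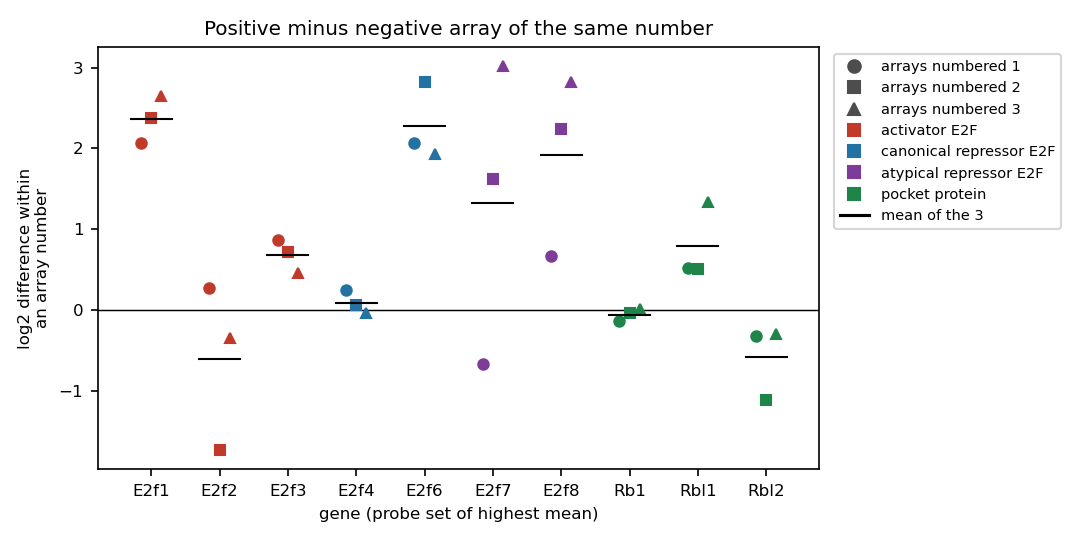
Log2 difference between the positive and the negative array of the same number for each gene, by its probe set of highest mean, with the mean of the 3 as a bar. E2f1, E2f3, E2f6, E2f8 and Rbl1 lie above 0 for all 3 numbers and Rbl2 below 0, while E2f7 ranges from -0.67 to 3.02.

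Rb1, which encodes RB, showed no difference between the groups beyond the spread of the arrays. Its bright probe set read 2953, 2417 and 2140 on negative and 2677, 2347 and 2160 on positive arrays, in the same order by array number. The groups overlapped, and the log2 difference was -0.06 with a 95% interval of -0.47 to 0.36 (limma, adjusted p = 0.906). The sign turned without negative array 1 (0.07) or positive array 3 (0.01). The other Rb1 probe set lay below the array medians everywhere, at 10.2 to 24.0.

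Rbl1, which encodes p107, was higher on every positive array without passing the test. The brightest of its 4 probe sets read 1581, 1787 and 1101 on negative and 2261, 2543 and 2789 on positive arrays. The groups were separated, with a difference of 0.79 ± 0.21 on the log2 scale (SE; limma, adjusted p = 0.0893). The next brightest read 1310, 446 and 343 on negative and 2881, 1358 and 1336 on positive arrays, so negative array 1 almost reached the positive ones. Its log2 difference was 1.57 (adjusted p = 0.169). It passed with the array number as a block (adjusted p = 0.0306), without negative array 1 (0.0437) and without both arrays numbered 1 (0.0477). The remaining probe sets of Rbl1 lay at 6.95 to 25.8, below the array medians on all arrays.

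Rbl2, which encodes p130, the pocket protein of resting cells, was lower on every positive array and was not called either. The brighter probe set read 171, 259 and 195 on negative and 137, 119 and 159 on positive arrays. The difference was -0.58 ± 0.20 on the log2 scale (SE; limma, adjusted p = 0.164). The dimmer one read 113, 154 and 105 on negative and 69.2, 90.3 and 103 on positive arrays, with a log2 difference of -0.50 (adjusted p = 0.257). Both probe sets had separated groups, but positive array 3 and negative array 3 were close on the second, at a ratio of 0.985.

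The negative arrays were not alike in replication genes. On a scale centred on each gene's mean, 37 E2F target genes of S phase averaged -0.30, -1.12 and -1.58 on negative arrays 1, 2 and 3 and 1.22, 0.94 and 0.85 on positive arrays 1, 2 and 3. Negative array 1 was also the highest negative array for E2f1, E2f7, both E2f8 probe sets, the dimmer one of E2f2 and the second of Rbl1. It was the lowest negative array for the brighter probe sets of E2f3 and Rbl2, and lay near array 3 for both E2f6 probe sets. The part of this difference in the members' wide intervals was not tested beyond leaving negative array 1 out.

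The genes that work with the E2Fs moved unevenly, and the list with the largest share of called genes was that of S phase targets. Of 37 measured target genes of S phase, 23 rose and none fell, at a median log2 difference of 2.21 against 0.01 over all genes. They included Mcm6, a subunit of the replicative helicase, at 5.89-fold, Pold1, the DNA polymerase delta subunit, at 5.35-fold, Cdt1, which licenses origins, at 3.83-fold, and Rfc3, a clamp loader gene, at 5.52-fold (adjusted p = 0.0162 to 0.0174). This list was chosen with the replication result known. Its count was 30 without negative array 1, 18 without negative array 3, 4 without negative array 2 and 0 without any one of the positive arrays. It was 14 without both arrays numbered 1 and 0 without both numbered 2.

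Each list of partners and regulators had 0 to 2 called genes, all of them higher. Over all genes 4.62% were called higher and 1.51% lower. Of the DP genes, Tfdp1 was at 5763 ± 1026 and 8978 ± 590 (SD, n = 3) with separated groups (limma, adjusted p = 0.0754), and Tfdp2 had a log2 difference of -0.13. E2f5, near background at 25.9 to 56.4, had a log2 difference of 0.35. Of 8 genes of the DREAM and MuvB complexes, which hold cell cycle genes off or on, 1 rose: Foxm1, a mitotic transcription factor, 3.15-fold (adjusted p = 0.0318). Of 10 pocket protein kinases and cyclins 2 rose. Cdk4, the kinase that first phosphorylates RB, went from 1457 ± 39.9 to 3358 ± 292 (SD, n = 3), a 2.30-fold rise (adjusted p = 0.012). Ccne1, cyclin E1, rose 3.27-fold (adjusted p = 0.0479), and positive array 1 was its highest at 785 against 421 and 302. The Ccne1 call held in 4 of 16 alternatives, at an adjusted p of 0.0321 to 0.318 over them. With all arrays kept it was lost under centring on the median (0.0602), quantile normalisation (0.0694), an added 16 (0.0688) and trend moderation (0.0505). Skp2, part of the ligase that destroys p27, rose 4.69-fold (adjusted p = 0.0103) and was the called gene of 5 for E2F protein turnover. The median log2 difference of these 5 was 2.23, and 4 of them had separated groups with the positive arrays above. Over all genes 17% had such groups. The median of the 10 kinases and cyclins was 1.09, and 5 of them had such groups.

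Of 10 measured genes of the E2F6 polycomb complex, 1 rose, Wdr5, which binds histone H3, at 1.67-fold (adjusted p = 0.0349, 0.055 with the array number as a block, 0.051 with centring and 0.0536 with trend moderation). The list's median log2 difference was 0.06, while E2f6 itself had 2.28. Separated groups had the positive arrays above for 3 of the 10 and below for 1, against 17% and 11.2% of all genes. Beside Wdr5, the 3 were Pcgf6 and L3mbtl2, at log2 differences of 1.20 and 0.61 (limma, adjusted p = 0.0751 and 0.0750). The 1 below was Epc1, at -0.37. These 3 further genes were named after their values were seen. None of 7 CDK inhibitor genes passed, with the largest differences for Cdkn1a (0.93, adjusted p = 0.363) and Cdkn2a (0.92, adjusted p = 0.165), read at 13.3 to 76.4 and at 36.0 to 126 over the 6 arrays. Cdkn1a had overlapping groups and exceeded the array median on 2 of 6 arrays. The lowest p of the list was that of Cdkn1b, which encodes p27 and was singled out after its values were seen, at 9258 ± 454 and 5280 ± 1415 (SD, n = 3) with the positive arrays below (log2 difference -0.85, adjusted p = 0.0804, and 0.0279 with its probe sets averaged). None of 8 measured corepressors passed, with Kdm5a at -0.73 (adjusted p = 0.0614) and Arid4a at -0.71 (adjusted p = 0.113), both known to bind RB. Of 8 measured apoptosis genes described as E2F targets, 1 fell, Bcl2l11, which encodes BIM, from 5210 ± 1188 to 2511 ± 462 (SD, n = 3), 2.06-fold (adjusted p = 0.0486), and none rose. The Bcl2l11 call held in 5 of 16 alternatives, at an adjusted p of 0.0300 to 0.297 over them. With all arrays kept it was lost under quantile normalisation (0.0503), an added 16 (0.0558) and the mean of its probe sets (0.141). Centring, quantile normalisation, an added 16 and trend moderation each kept 8 of the 10 called genes named from these lists. Without positive array 2 none of the 10 passed, and without negative array 2 or positive arrays 1 or 3, 5, 2 and 2 of them did.

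**Figure D4:**
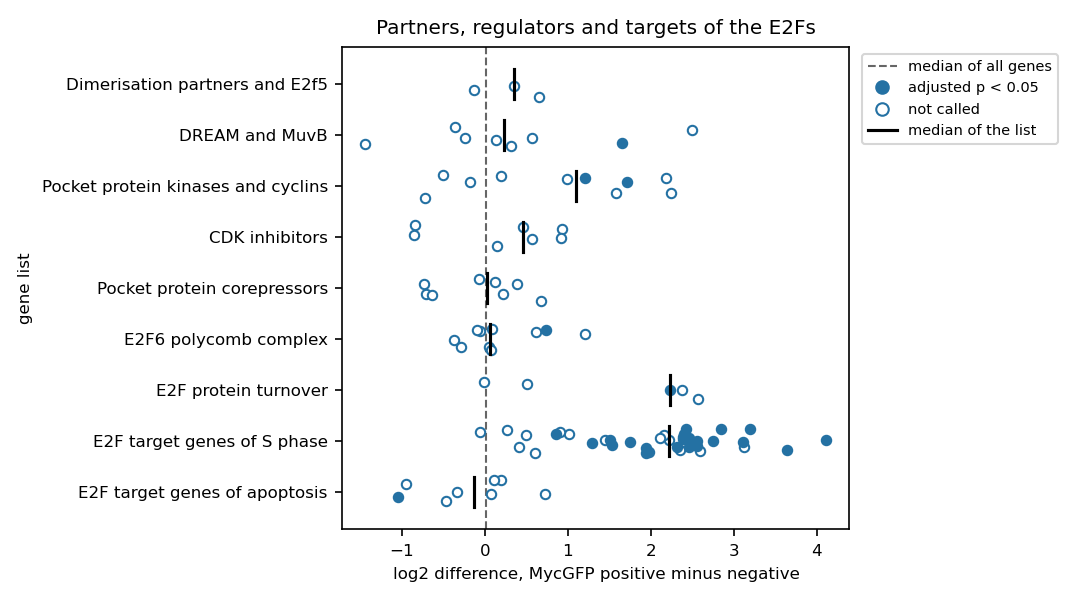
Log2 difference of each measured gene in 9 lists of E2F partners, regulators and targets, with filled points for an adjusted p under 0.05, a bar at the median of each list and a dashed line at the median of all genes. The S phase targets have 23 filled points and a median of 2.21, the 5 E2F turnover genes a median of 2.23, and the kinases and cyclins 1.09, while the medians of the corepressors and of the E2F6 polycomb complex are 0.03 and 0.06.

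By profile over the 6 arrays, the genes nearest to E2f1 were Shmt1, Nelfe, Ndufaf6, Pimreg and Cenpv. Their centred log2 values differed from those of E2f1 by a root mean square of 0.13 to 0.17, among genes with a mean above the median of all genes. Each of these 5 rose in positive cells by a log2 difference of 2.11 to 2.42, and likeness over 6 arrays in 2 groups includes that step. Of the 5, 1 passed without negative array 2, positive array 1 or positive array 3, and 0 without positive array 2. The genes nearest to Rbl2 were Tspyl4, Cpne1, Vhl, Tmc8 and Smim13, at distances of 0.08 to 0.12 and log2 differences of -0.59 to -0.37, and none of them was called.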

How the data were processed

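RNA of sorted cells, 5 ng per sample, was amplified and hybridised to Affymetrix mouse arrays, per the labels' protocols, a small input that may widen the spread of dim probe sets. The authors deposited 1 intensity per probe set and array, not on a log scale; RMA is named in the submitters' processing notes. Log2 of the intensity was taken. Of 45101 probe sets, 34945 had 1 gene symbol in the platform annotation and were used, with symbols updated by Entrez identifier through RefSeq (34741 matched); 64 control probe sets and those with several symbols (932) or none (9160) were left out. A gene was represented by its probe set of highest mean over the 6 arrays, and every probe set of the members was also fitted.

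Groups came from the sample titles. limma 3.58.1 in R 4.3.3 (lmFit, eBayes, 2 groups, no covariate, two-sided) was fitted over all 18193 genes and, separately, over all named probe sets, with Benjamini-Hochberg adjustment and a threshold of 0.05. Folds are ratios of geometric means. The code was tested on simulated data. The members and lists were chosen with earlier results of these data known. List genes named are up to 4 called ones in order of adjusted p, or, where none was called, the 2 that differed most. Likeness to E2f1 and Rbl2 was taken over 5 genes each.

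Arrays of the same number deviated together from their group means across genes (r = 0.38, 0.21 and 0.39), so the numbers were taken to pair the arrays, as an assumption; no label says so. Within a group the deviations cancel, so part of the contrast with other numbers is built in. The Y-linked Eif2s3y did not match within numbers 2 and 3. It read 1038 on negative and 125 on positive array 2, and 40.2 and 185 on the arrays numbered 3. With no label for separate animals, p-values cover only how far these samples vary.

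Alternatives were the number as a block, each array left out, arrays centred on their median, quantile normalisation, 16 added to the intensity, only probe sets with a mean above the median, trend and robust moderation, probe sets with _s_at and _x_at names dropped, and the mean of a gene's probe sets. Leaving out both arrays numbered 1 or both numbered 2 was chosen after seeing the data.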

Additional observations from a re-analysis of the deposited data

How the results depend on the processing

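With the array number as a block, 1047 genes were higher and 354 lower, 892 of 1401 shared with the 1115 called without it, and 7 member probe sets were higher. The block changed no call of a member gene; among member probe sets it added the second ones of E2f1 and Rbl1, and among the 10 named list genes it ended that of Wdr5. Leaving out single arrays gave 0 to 862 genes higher and 0 to 238 lower, 0 to 3 member genes higher and 0 to 9 member probe sets higher. The value 0 came without positive array 2, where limma's smallest adjusted p was 0.0591 and, before adjustment, 2209 genes higher and 976 lower had a p under 0.05. In alternatives chosen after seeing the data, 310 genes were higher and 42 lower without both arrays numbered 1, and 0 of each without both numbered 2, which left 0 member genes and 0 member probe sets. Fewer arrays give fewer degrees of freedom. The gap between activators and repressors stayed below 0 in the 16 alternatives, at -1.12 to -0.22, but not within arrays numbered 1. All alternatives but the mean of a gene's probe sets read E2f2 from the same probe set. With its other probe set the gap was -0.01. Signs turned for uncalled genes only: Rb1 without negative array 1 (0.069), without positive array 3 (0.01), over a range of -0.16 to 0.069 with single arrays left out, or with probe sets averaged (0.24), E2f2 with probe sets averaged (0.26), E2f4 with quantile normalisation (-0.09), and 1 dim Rbl1 probe set without positive array 3 (0.16, in a range of -0.52 to 0.16). The cause was not tested. Signal over background limits E2f7, the dimmer E2f8 and E2f6 probe sets and the dim Rb1 and Rbl1 ones.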
